A study of Schizosaccharomyces pombe with 6 samples.

Results

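The genes described here are the fission yeast (Schizosaccharomyces pombe) HECT ubiquitin ligase genes pub1, pub2 and pub3 and the arrestin-like gene any1. They were taken by name, as genes that control the traffic of amino acid permeases, by a rule that uses no measured value. The array's annotation gave 1 probe set each to pub1, pub2 and pub3, so 3 of the 4 genes were measured among 2899 named S. pombe genes. No probe set carried the name any1, and that gene was not analysed here. Its older names art1 and can1 do occur in the annotation, but there their gene IDs belong to the current genes art1 and vhc1.

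Total RNA was measured on 6 arrays in 2 groups. The first group is 3 arrays of cells lacking isp7 (genotype isp7+ null) and the second is 3 arrays of wild type cells. Both groups were in mid-log growth at 30 degrees in Edinburgh minimal medium with ammonium chloride as its nitrogen source, and no further treatment was named for either. Isp7 is a dioxygenase of the class that uses 2-oxoglutarate and iron, and by its title the series concerns the role of Isp7 in amino acid uptake within TOR signalling. The labels give no mating type, no other allele and no construct for the deletion, and they do not say that replicates were separate cultures or separate null clones, so p-values measure only the spread between these arrays.

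HECT ligases carry ubiquitin on a cysteine of their own before passing it to a substrate, and ligases of the Nedd4 family, to which the Pub proteins belong, bind many substrates through arrestin-like adaptors that contain short proline- and tyrosine-containing motifs. Ubiquitin placed on a permease marks it for removal from the plasma membrane, or for diversion from the Golgi and endosomes, and ESCRT complexes then sort it into the vacuole. In fission yeast Pub1 works with the adaptor Any1 on amino acid transporters such as Cat1 and Aat1, and Pub1 was first described as a ligase that acts on the mitotic activator Cdc25. Such control acts on proteins, while the arrays measured transcripts only.

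The isp7 transcript followed the labels. Its probe set had log2 values of 6.02, 6.38 and 6.17 in the isp7 null arrays, against 11.70, 11.63 and 11.55 in the wild type arrays. The null values lie below the background of 7.08, which is percentile 95 of the mean values of the budding yeast probe sets on the same array, so the transcript was at least 23.3-fold lower (limma adjusted p = 8.75e-08). Arrays correlated at 0.998 to 0.999 within a group and at 0.973 to 0.978 between groups, and no array stood apart from its group. All 5 mating genes listed for M cells were higher in the null (log2 change 0.53 to 4.25), while the P-cell genes map2 (-0.09, limma adjusted p = 0.33) and map3 (-0.13, adjusted p = 0.111) did not pass the test. The mean of map2 was near the background, at 7.58 in the null and 7.67 in wild type, and that of map3 was 8.64 and 8.77. mam3, which was listed with the P-cell genes although it encodes an adhesin of M cells, was higher (0.23, limma adjusted p = 0.00139). The part of mating type in the values below was not tested.

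Loss of isp7 went with slightly less pub1 and pub3 transcript and with no detected change of pub2. In what follows, "fell" and "rose" mean that limma's p, adjusted by Benjamini and Hochberg over 2917 S. pombe probe sets, was under 0.05. The series' own threshold adds a change of at least 1.5-fold. The 2917 are the probe sets that the annotation gives to a single named S. pombe gene, and "all S. pombe probe sets" means these. Another 5177 probe sets of the array had no gene name and are not counted. By the adjusted p alone, 2 of the 3 ligase genes fell and none rose, where 41.3% of all S. pombe probe sets fell, 29.3% rose and 70.7% passed in either direction. That excess of falls (856 probe sets higher and 1205 lower) was smaller with each array centred on its median (1016 higher and 1038 lower) and after correction for gene length (983 higher and 1112 lower). With the 1.5-fold threshold 0 of the 3 passed in limma, against 8.6% of all probe sets (4.22% higher and 4.39% lower). Without the fold threshold, pub1 and pub3 had an unadjusted limma p under 0.05, as had at least the 70.7% of probe sets that passed the adjusted p. The share of ligase genes that passed is therefore close to that of the array as a whole.

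pub1 (SPAC11G7.02) had log2 values of 11.31, 11.30 and 11.30 in the isp7 null arrays, against 11.59, 11.50 and 11.61 in the wild type arrays. Every null array lay below every wild type array, and the null arrays were nearly identical. The means were 11.30 ± 0.00955 in the null and 11.56 ± 0.0578 in wild type (SD, n = 3 each). The transcript fell by 16.5%, a log2 change of -0.26 with SE 0.0349 and a 95% interval from -0.34 to -0.18 (limma adjusted p = 0.000447). The gap between the groups exceeded the spread within either, and of all S. pombe probe sets 40.7% had an absolute change at least this large.

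pub3 (SPBC16E9.11C), a second ligase of the same family, changed by nearly the same amount. Its probe set had log2 values of 9.02, 9.11 and 8.96 in the null arrays, against 9.33, 9.24 and 9.30 in the wild type arrays. The groups again did not overlap, and here the null arrays were the more spread. The means were 9.03 ± 0.0747 in the null and 9.29 ± 0.0442 in wild type (SD, n = 3 each). The transcript fell by 16.7%, a log2 change of -0.26 with SE 0.0448 and a 95% interval from -0.37 to -0.16 (limma adjusted p = 0.00145). An absolute change at least this large was found for 40.2% of S. pombe probe sets.

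pub2 (SPAC1805.15C) did not pass the test. Its probe set had log2 values of 9.26, 9.21 and 9.28 in the null arrays, against 9.22, 9.14 and 9.27 in the wild type arrays, and the groups overlapped. The means were 9.25 ± 0.0324 in the null and 9.21 ± 0.0683 in wild type (SD, n = 3 each), which differ by 0.04 on the log2 scale (SE 0.0407, limma adjusted p = 0.403). The 95% interval of the change ran from -0.06 to 0.14 on the log2 scale, which is a change of -3.84% to 9.9%. Groups that do not overlap were thus seen for 2 of the 3 ligase genes, where 76.1% of all S. pombe probe sets have them. Levels on an array cannot be set against each other between probe sets, so the ligases are not ranked by abundance. All 3 had a mean above the background in both groups.

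**Figure D1:**
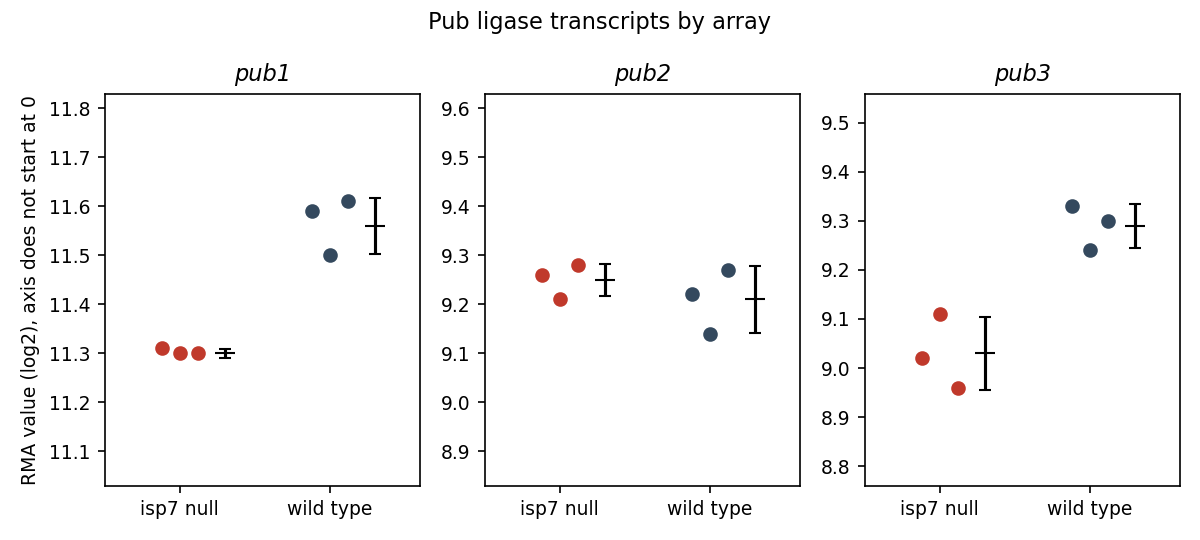
RMA values (log2; axes span equal ranges and do not start at 0) of the pub1, pub2 and pub3 probe sets on each array, isp7 null left of wild type, with the mean and SD of the 3 arrays as a bar beside the points. For pub1 and pub3 every null array lies below every wild type array, and for pub2 the groups overlap.

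The ligases were also compared with each other by the difference of their log2 values on each array, which cancels anything that moves both probe sets equally. The pub1 value minus the pub2 value was 2.02 to 2.09 in the null arrays and 2.33 to 2.37 in the wild type arrays, a difference of changes of -0.30 (SE 0.0232). The pub2 value minus the pub3 value was 0.10 to 0.32 in the null arrays and -0.12 to -0.03 in the wild type arrays, a difference of 0.30 (SE 0.068). In both pairs the groups did not overlap, and the exact two-sided permutation p was 0.1, the smallest that 3 arrays against 3 can give (0.15 adjusted over the 3 pairs), so this test cannot place either difference under 0.05. The pub1 value minus the pub3 value was 2.19 to 2.34 in the null arrays and 2.25 to 2.31 in the wild type arrays, which overlap (difference 0.004, SE 0.0456, exact permutation p = 1.0).

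The change of a probe set ran with the length of its gene, and the ligase genes are long. Across S. pombe probe sets the log2 change fell by 0.147 for each doubling of gene length. The genes span 3107 bases for pub1, 2536 for pub2 and 3041 for pub3 in the RefSeq gene table, against a median of 1876 bases over all S. pombe probe sets. At these lengths the correction for the trend takes -0.14 from the log2 change of pub1, -0.10 from that of pub2 and -0.14 from that of pub3. After each array was corrected for the trend, pub1 stood at -0.12 (SE 0.0349, limma adjusted p = 0.0181) and pub3 at -0.13 (SE 0.0427, adjusted p = 0.0308). In the same fit pub2 stood at 0.14 (SE 0.0404, limma adjusted p = 0.0166) and passed as higher. The directions were kept, but the sizes for pub1 and pub3 were less than those before the correction by over 1.5 times, and whether the trend is technical was not tested. Nor was it tested whether a linear trend holds for the longest genes of the lists below.

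**Figure D2:**
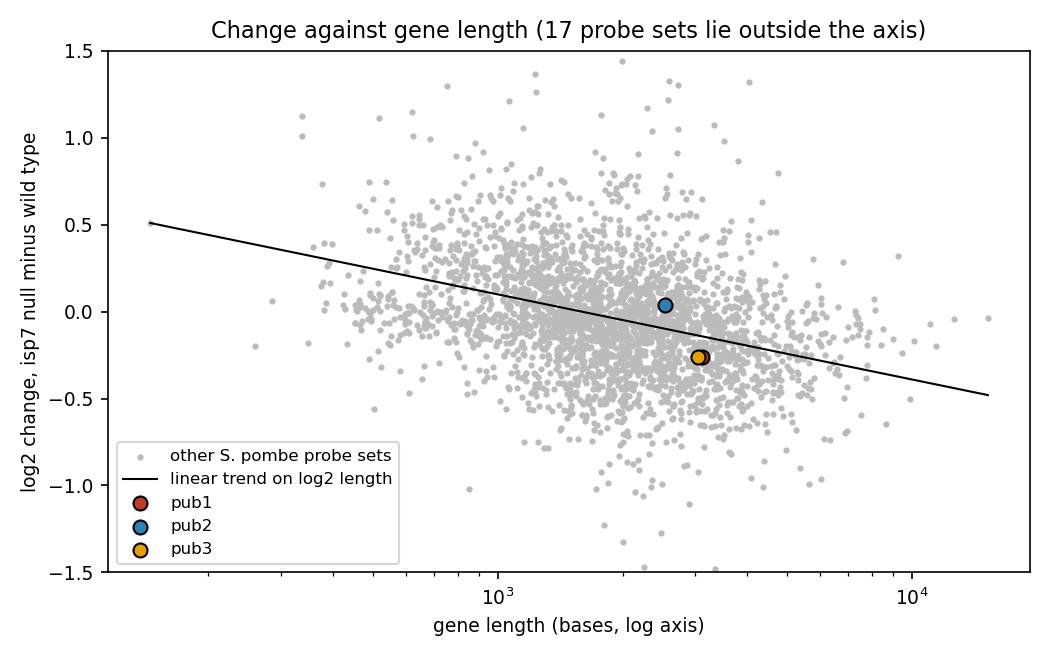
The log2 change (isp7 null minus wild type) of each S. pombe probe set against the length of its gene in bases (log axis), with the linear trend as a line and the 3 ligase genes as large points; 17 probe sets lie outside the plotted range of ±1.5. The points of pub1 and pub3 lie on top of each other below the line, and pub2 lies above it.

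The genes whose values over the 6 arrays ran most like those of a ligase were sought among 2898 others by Pearson's r, as a description. Since pub1 and pub3 separate the groups, a high r for them largely means that another gene separates the groups in the same direction. For pub1 they were vps52 (r = 0.997), a subunit of a Golgi tethering complex, nup132 (0.996), a nuclear pore protein gene, and abc2 (0.994), which encodes an ABC transporter. For pub3 they were mph1 (0.998), a spindle checkpoint kinase gene, aps3 (0.997), a subunit of the AP-3 adaptor that carries cargo to the vacuole, and psd3 (0.994), a phosphatidylserine decarboxylase gene. An r of at least 0.95 was reached by 330 genes for pub1 and by 103 for pub3. For pub2 none reached it; the nearest were lsm8 (0.938), rst2 (0.934) and apl6 (0.865), of which apl6 encodes another AP-3 subunit.

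The genes that act with the Pub ligases were described in lists, by counts beside those of all probe sets given above. The counts cover only genes with a named probe set. Without one were 2 other HECT ligase genes, 1 of the ubiquitin list, 3 of the ESCRT list and 4 of the endocytic list. Of the other HECT ligase genes 2 were measured: ptr1 fell, at -0.17 on the log2 scale (SE 0.0388, limma adjusted p = 0.00585), and mug30 stood at 0.10 (adjusted p = 0.103). After the length correction ptr1, a very long gene, stood at 0.22 and mug30 at 0.25, both past the adjusted p as higher. mug30 also passed as higher with median centring (0.15, limma adjusted p = 0.0132), with repeated quantile normalization (0.16, adjusted p = 0.00485) and without isp7 null array 1 (0.15, adjusted p = 0.00731). None of the 5 arrestin family genes listed beside any1 (any2, aly1, aly2, aly3 and rod1) had a named probe set, and they were not analysed here. The arrestin gene art1 (SPBC19G7.08C) was added after its values had been seen; it was at 9.64, 9.66 and 9.65 in the null arrays, against 9.30, 9.39 and 9.27 in the wild type arrays. It rose by 0.33 on the log2 scale (SE 0.0375, limma adjusted p = 0.000195), in the direction opposite to pub1 and pub3.

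Ubiquitin reaches a HECT ligase from the activating enzyme E1 through a conjugating enzyme E2. Of 17 measured genes for ubiquitin, E1 and E2, 6 rose and 2 fell, none by 1.5-fold, with a median log2 change of 0.01 against -0.05 for all S. pombe probe sets. After the length correction 5 were higher and 4 lower. The largest changes were those of ubc11 (0.33, SE 0.0494, limma adjusted p = 0.000732), an E2 of the cell cycle, and of rhp6 (0.28, SE 0.0261, adjusted p = 7.89e-05), the E2 gene for histone H2B. Chosen for their roles after their values had been seen, ubc4, which encodes a general E2, stood at 0.06 (limma adjusted p = 0.0722) and the E1 gene uba1 at -0.02 (adjusted p = 0.58), and after the length correction these stood at -0.03 for ubc4 and 0.14 for uba1 (adjusted p = 0.00256).

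Deubiquitinating enzymes remove what the ligases add. Of 18 measured, 8 fell and 6 rose (median log2 change -0.04), and 2 fell by at least 1.5-fold, where 4.39% of all probe sets did. These were ubp11 (-1.47, SE 0.0971, limma adjusted p = 1.87e-05) and ubp3 (-0.61, SE 0.0322, adjusted p = 9.19e-06). ubp4, a gene known for a role in endocytosis and named for it after its values had been seen, fell to 11.25 in the null, against 11.58 in wild type (log2 change -0.32, SE 0.028, limma adjusted p = 5.3e-05). Before the length correction its change was of the order of those of pub1 and pub3. After it ubp4 stood at -0.22 (limma adjusted p = 0.000801), against -0.12 for pub1 and -0.13 for pub3. With that correction 6 of the 18 genes were higher and 7 lower.

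ESCRT complexes collect ubiquitinated cargo at the endosome. Of 14 measured ESCRT and multivesicular body genes, of which sst2 is also among the deubiquitinating enzymes, 7 rose and 3 fell, none by 1.5-fold, with a median log2 change of 0.17. The largest rises were those of hse1 (0.53, SE 0.0513, limma adjusted p = 8.73e-05), an ESCRT subunit gene whose product binds ubiquitin, and of did4 (0.42, SE 0.0322, adjusted p = 3.35e-05), a subunit of the complex that closes vesicles. The median gene of this list has 1503 bases, shorter than the ligase genes, and after the length correction 7 were higher and 4 lower. Of 18 endocytic coat and actin patch genes 4 rose and 6 fell (median 0.04), led by cap1 (-0.31, SE 0.0467) and by the AP-2 adaptor gene apl1 (-0.28, SE 0.0358), and the length correction turned this balance to 10 higher and 3 lower and took apl1 to -0.14.

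Genes for transporters, the cargo of such ligases, changed in both directions. Of 7 measured genes, 6 amino acid permeases and the hexose transporter gene ght5, 3 rose and 3 fell, all by at least 1.5-fold, where 8.6% of all probe sets did. Another 8 genes of this list had no named probe set, so the counts do not describe the whole family. Of the amino acid transporters tied to Pub1, cat1 was at 10.96, 10.85 and 11.06 in the null arrays, against 11.92, 12.06 and 11.92 in the wild type arrays, which differ by -1.01 on the log2 scale (SE 0.0618, limma adjusted p = 1.32e-05). aat1 was at 12.34, 12.13 and 12.25 in the null arrays, against 12.98, 13.10 and 12.91 in the wild type arrays (-0.76, SE 0.0671, adjusted p = 5.9e-05). Both transporter genes fell, as pub1 and pub3 did, with no overlap between the groups. Of all S. pombe probe sets 41.3% fell and 76.1% had groups that do not overlap. After the length correction cat1 stood at -0.93 and aat1 at -0.67, against -0.12 for pub1 and -0.13 for pub3. ght5 fell by 0.71 on the log2 scale (SE 0.0888), while per1 (1.17), put4 (1.44) and isp5 (4.41) rose. The remaining gene, meu22, stood at -0.04 (limma adjusted p = 0.554) with a mean below the background in both groups.

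Upstream, the TSC proteins restrain the GTPase Rheb, which activates TORC1. The list of 8 measured genes holds, beside TSC and Rheb genes, also tor1, tor2, gad8, gsk3 and cdc25. Of the 8, 3 rose and 1 fell, none by 1.5-fold, with a median log2 change of 0.04. Beside tsc1 and rhb1, gad8 rose (0.12, limma adjusted p = 0.0353), and tor1 fell (-0.10, adjusted p = 0.0287). tsc1 lay between 12.01 and 12.13 in the null arrays, against 11.56 to 11.72 in the wild type arrays (0.42, SE 0.0501, limma adjusted p = 0.000236). rhb1, the Rheb gene, rose by 0.29 (SE 0.0375, adjusted p = 0.000354), and stood at 0.15 after the length correction, where tsc1 stood at 0.63. cdc25, whose product is a Pub1 substrate, was named for that after its values had been seen and stood at -0.04 (limma adjusted p = 0.61). After the length correction 7 of the 8 were higher and none lower, against 983 higher and 1112 lower of all 2917 S. pombe probe sets. The long genes tor1 and tor2 then stood at 0.23 and 0.32, against -0.10 and 0.002 before the correction.

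**Figure D3:**
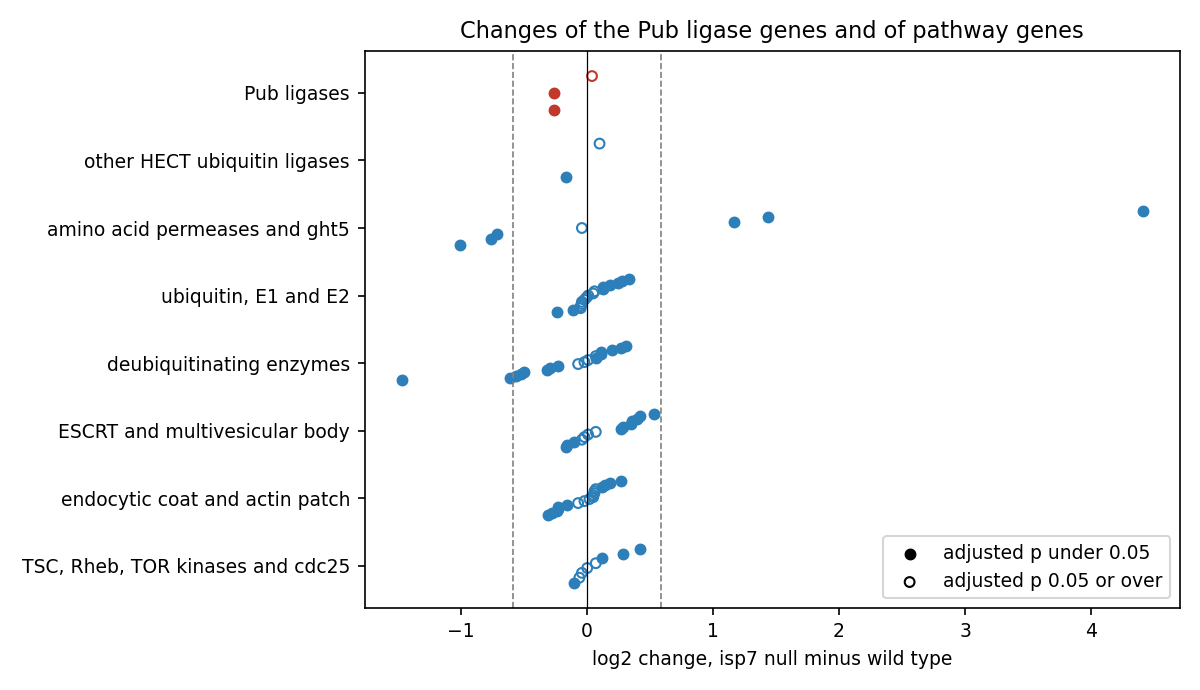
The log2 change (isp7 null minus wild type) of the Pub ligase genes and of each measured gene of 7 related lists, 1 point a gene; filled points have a limma adjusted p under 0.05, and dashed lines mark 1.5-fold. The ligase genes lie between -0.26 and 0.04, inside the lines, while 6 of the 7 permease and hexose transporter genes lie outside them.

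Over 16 other ways of fitting or scaling the values, pub1 stayed lower, at -0.29 to -0.12, with a limma adjusted p of at most 0.0181. pub3 stayed lower as well, at -0.30 to -0.13, with an adjusted p of at most 0.0308. Changing limma's settings, the block or the set of probe sets leaves the estimates unmoved and alters only their errors and p. Leaving out an array cannot turn the sign where the groups do not overlap. Only rescaling could turn it for pub1 and pub3. Median centring gave -0.21 for both, repeated quantile normalization -0.22 and -0.28, and the length correction -0.12 and -0.13. For pub2 the change was 0.004 to 0.14, and only the length correction placed it past the threshold. No single array decided the call of any of the 3 genes.

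**Figure D4:**
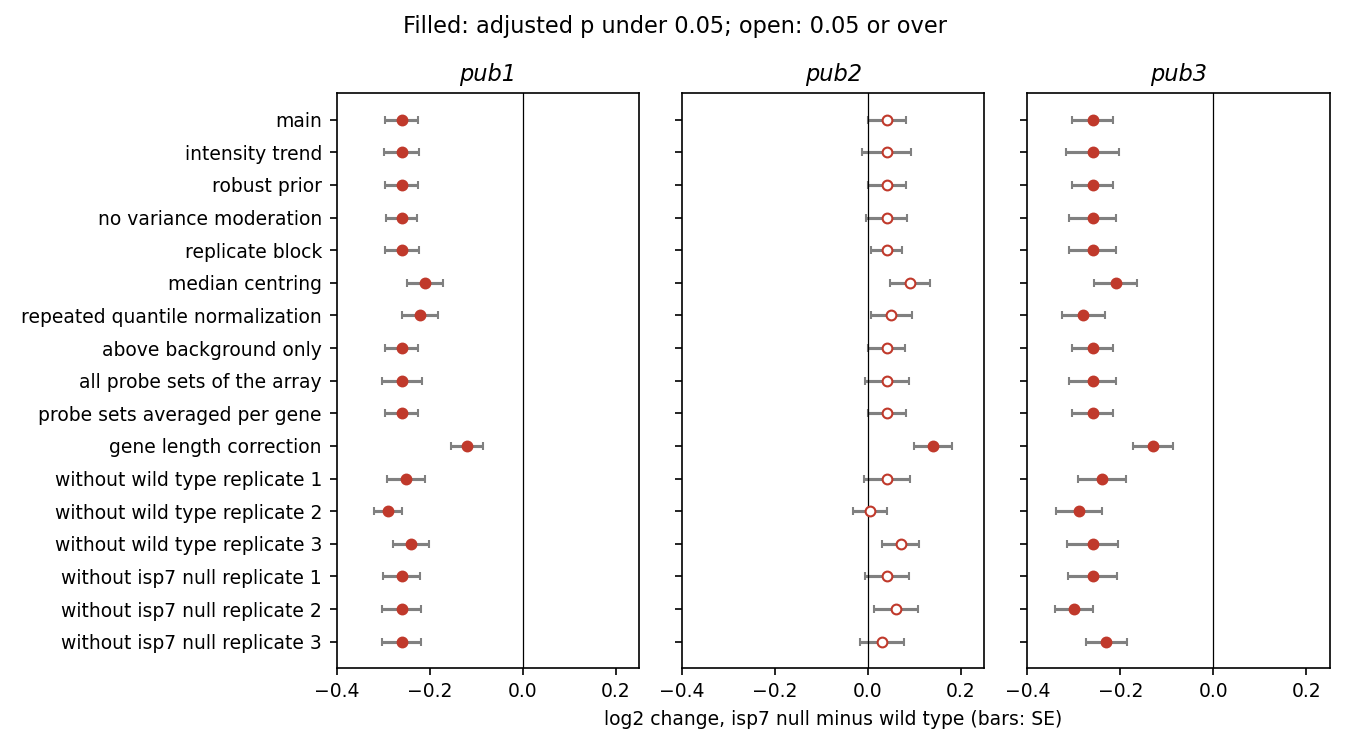
The log2 change (isp7 null minus wild type) of pub1, pub2 and pub3 under the main fit and 16 alternatives, with SE as bars; filled points have a limma adjusted p under 0.05. The points of pub1 and pub3 are filled and below 0 in every row, and the gene length correction moves them most and fills the point of pub2. Rows that change only limma's settings, the block or the set of probe sets keep the same estimate.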

How the data were processed

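Per the submitters' processing notes, the authors used RMA in Partek version 6.5, which gave the deposited log2 value of each probe set on each array; the genome build is not given in the sources used here. RMA evens out the arrays' distributions, so changes in total RNA are removed. All 6 columns were used. Genes were assigned by the platform annotation and its gene IDs, looked up in RefSeq's gene table (assembly ASM294v3) for current symbols and lengths. The 2917 S. pombe probe sets were fitted with limma 3.58.1 (lmFit, eBayes) in R 4.3.3, isp7 null minus wild type, two-sided. Errors are SD over arrays or SE of the fit, and precision is limited by having 3 arrays a group. Of several probe sets of a gene, the brightest by its mean was taken. The fit was tested on simulated data with independent errors, few changed probe sets and no length trend. The real data differ in these respects, so that test does not bear on the calls made here. The rule for the ligase genes and any1 uses names only, but it and the lists were set with earlier results of these data known. Named were isp7, the ligase genes, list genes past 1.5-fold or else the 2 largest changes of a list, the 3 genes most like each ligase, and those stated to be added. An older name, ubp13, leads to a deadenylase gene and was left out. Groups of 3 are too small for an outlier test.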

Additional observations from a re-analysis of the deposited data

How the results depend on the processing

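The alternatives were an intensity trend, a robust prior or no moderation in limma, the replicate number as a block, median centring, repeated quantile normalization, a background filter, all probe sets, averaging per gene, the gene length correction and leaving out each array. For pub2 the length correction gave 0.14 (limma adjusted p = 0.0166), and for ptr1 it turned the sign, to 0.22. The correction took -0.10 from the log2 change of pub2 and -0.39 from that of ptr1. Leaving out each array gave adjusted p of 0.000354 to 0.00277 for pub1, 0.00114 to 0.00748 for pub3 and 0.167 to 0.928 for pub2. Deviations of same-numbered arrays from their group means correlated at -0.12, -0.25 and 0.11, and those of unlike-numbered arrays at -0.12 to 0.25. Deviations from a mean of 3 arrays constrain each other, so these values cannot show whether the numbers pair the arrays. With the replicate block the limma adjusted p was 0.00285 for pub1, 0.324 for pub2 and 0.00791 for pub3. In that fit 804 probe sets were higher and 1132 lower, against 856 and 1205 without the block. By 1.5-fold 123 probe sets were higher and 128 lower, against 154 and 94 with median centring, which moves the median of all probe sets by 0.05. The call of mug30 also changed under 4 alternatives, with values beside its result. Genes near 0 changed sign: with the length correction meu22 stood at 0.13, ubc4 at -0.03, uba1 at 0.14 (limma adjusted p = 0.00256) and cdc25 at 0.11; with median centring meu22 at 0.004, uba1 at 0.03 and cdc25 at 0.01; with repeated quantile normalization uba1 at 0.01 and cdc25 at 0.01. Leaving out each array gave -0.09 to 0.03 for meu22 and -0.09 to 0.03 for cdc25. ubc4 passed as higher with an intensity trend (0.06), without moderation (0.06) and with median centring (0.11).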
